A study of Mus musculus with 18 samples.

Results

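Formative and primed pluripotency was followed here through 7 genes, Fgf5, Otx2, Pou3f1, Sox3, Zic2, Sox4 and Foxd3, which were chosen by name among the 21859 genes of the nascent transcription table. Each had exactly 1 row there, and 4 of them, Foxd3, Sox4, Otx2 and Fgf5, also had a row among the 32253 promoter upstream transcripts (PROMPTs), the short RNAs made divergently from a promoter. The data were TT-seq libraries, in which RNA made during a 5 min pulse of 4-thiouridine is purified and sequenced. E14 murine embryonic stem (ES) cells, which all carried the plant F-box gene osTIR1, were either untagged or were 1 of 2 clones, SPT16_AID_V5_Clone1 and SPT16_AID_V5_Clone2, in which Supt16 also carried a mini-AID degron and a triple V5 tag at its 3′ end. Each was treated for 24 h with EtOH or with the auxin 3-IAA (500 nM in the labels, 500 µM in the study's methods), giving 6 conditions with 3 libraries each. The cells were grown in serum with LIF, a GSK inhibitor and a MEK inhibitor. The study calls the 2 clones biological replicates and repeats of 1 sample technical replicates.

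The tables hold 1 level per transcript, the authors' mean over libraries of reads divided by size factors (baseMean), in which SPT16-depleted and control libraries were averaged together. The levels below are therefore levels across the whole set of libraries and say nothing of what IAA did. The remaining columns are the authors' own comparison and were not used, and no value per library was used, so that neither a spread between libraries nor a test between conditions is given. Genes with 1 read in 1 library take a baseMean set by that library alone, and 18 such values stood out in the gene table, from 0.0216 to 0.115. They gave the counting error printed after each level as ±, which covers counting alone and takes the level to be the same in every library.

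ES cells in these media sit in the naive state, which matches the epiblast before implantation. As cells leave it they pass through a formative state, and later a primed state, in which naive factors are lost and a second set of regulators takes over while Pou5f1 and Sox2 stay on. Fgf5 encodes a secreted growth factor and is the classic marker of the epiblast after implantation. Otx2 is a homeodomain factor that directs OCT4 to new enhancers, Pou3f1 (also known as Oct6) is a POU factor, and Foxd3 is a forkhead factor. Sox3 is a SOXB1 factor closely related to Sox2, Sox4 belongs to the SOXC group, and Zic2 is a zinc finger factor.

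The promoters of the 4 genes with a PROMPT row are shown because gene and PROMPT are transcribed in opposite directions from such a stretch. Of the 7 genes, 4 had an entry among the 32851 RefSeq promoter windows on GRCm38.p6, each of 300 bases with 250 before the start and 50 from it on, and Otx2 had 4 windows, of which the first listed is printed. Its start lies inside the annotated gene, which reaches further upstream, and which Otx2 start the PROMPT row belongs to is not known here. Capitals mark CpG sites. The windows are chr4:99656049-99656348 on the plus strand for Foxd3, chr13:28953650-28953949 on the minus strand for Sox4, chr14:48667595-48667894 on the minus strand for Otx2 and chr5:98253934-98254233 on the plus strand for Fgf5.
Foxd3: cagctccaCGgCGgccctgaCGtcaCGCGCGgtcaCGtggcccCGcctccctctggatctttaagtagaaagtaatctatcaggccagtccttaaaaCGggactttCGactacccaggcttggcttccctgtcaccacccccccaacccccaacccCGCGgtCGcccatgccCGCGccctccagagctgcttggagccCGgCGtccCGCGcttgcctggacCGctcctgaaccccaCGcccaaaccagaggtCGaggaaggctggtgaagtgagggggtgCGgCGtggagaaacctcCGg
Sox4: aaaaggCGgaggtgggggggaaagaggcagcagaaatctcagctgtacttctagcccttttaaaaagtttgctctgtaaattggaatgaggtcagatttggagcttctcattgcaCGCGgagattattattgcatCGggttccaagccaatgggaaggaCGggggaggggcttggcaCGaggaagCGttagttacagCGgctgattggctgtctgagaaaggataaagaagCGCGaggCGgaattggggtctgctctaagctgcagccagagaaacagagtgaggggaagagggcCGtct
Otx2: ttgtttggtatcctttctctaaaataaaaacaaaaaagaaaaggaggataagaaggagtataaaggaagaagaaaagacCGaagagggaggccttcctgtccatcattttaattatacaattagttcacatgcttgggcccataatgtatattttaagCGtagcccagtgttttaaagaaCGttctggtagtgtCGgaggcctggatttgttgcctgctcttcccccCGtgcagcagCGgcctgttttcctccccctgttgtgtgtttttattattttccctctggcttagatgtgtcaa
Fgf5: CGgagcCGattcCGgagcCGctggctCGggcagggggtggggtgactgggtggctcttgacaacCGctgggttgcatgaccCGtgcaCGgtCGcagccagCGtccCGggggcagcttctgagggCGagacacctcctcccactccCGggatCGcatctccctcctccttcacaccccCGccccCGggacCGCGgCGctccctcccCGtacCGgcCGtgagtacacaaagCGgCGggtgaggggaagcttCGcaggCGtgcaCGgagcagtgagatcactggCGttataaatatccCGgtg

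The 4 promoters differed in base composition. The Fgf5 window held 29 CpG sites and the Foxd3 window 25, against a median of 7 over all windows. The ratio of observed to expected CpG was 0.828 for Fgf5 and 0.793 for Foxd3, above 81.5% and 78.5% of all windows, whose median was 0.384. Sox4 had 12 CpG sites and a ratio of 0.679. The printed Otx2 window held 6 CpG sites at a ratio of 0.463, with 41.7% G or C. Its 3 other windows, which start further downstream, had 8, 16 and 11 CpG sites, at ratios of 0.475, 0.891 and 0.541. The ratio of 0.891 was above those of Fgf5 and Foxd3, so the place of Otx2 depends on the window taken. Thus Fgf5, the gene with the lowest level of the 7, and Foxd3, with a far higher one, both had many CpG sites.

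The windows were searched on both strands for the TATA box TATAAA, the CCAAT box CCAAT and the GC box GGGCGG. None of these contains another, although the CCAAT box can overlap either of the others at its ends. Sox4 held the CCAAT box 4 times. On the gene's strand the first base lay 104 bases before the start, and on the opposite strand 171, 47 and 8 bases before it. The second listed Otx2 window, which is not printed, held 1 CCAAT box, on the opposite strand 70 bases before its start. Of all windows, 37.4% held the CCAAT box at least once. Fgf5 held 1 GC box, on the opposite strand 74 bases before the start, and 35.7% of all windows held one. TATAAA lay 192 bases before the start in the printed Otx2 window and 35 bases into the transcript in Fgf5, and 13.6% of all windows held it. None of the 3 was found in the Foxd3 window. A match is a run of letters and not a site of binding.

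Levels between genes were compared per kb of merged exons, and for genes with introns per kb of the whole gene span as well, since the sources used here do not say whether reads in introns were counted. For the 4 genes with a single exon, Foxd3, Sox4, Pou3f1 and Sox3, both scales are the same. Percentiles are the share of 20140 ranked genes with a baseMean above 0 that had a lower level on that scale, so that the median gene is at 50 by construction.

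Zic2, on chromosome 14 of GRCm38 from 122475435 to 122479852 with 3 exons, had the highest level of the 7. Its baseMean was 754 ± 6.73 reads, or 262 ± 2.34 per exonic kb, which was 2.17 times the level of the median gene (percentile 59.6). Foxd3, on chromosome 4 from 99656299 to 99658622, followed with a baseMean of 322 ± 4.40, or 139 ± 1.89 per exonic kb (percentile 51.5). These were the 2 members above the median gene, whose level was 120.5 per exonic kb. Zic2 alone made up 46.5% of the reads of the 7 genes together.

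Otx2 and Sox4 lay below the median gene. For Otx2, on chromosome 14 from 48657677 to 48673819 with 7 merged exons from 11 annotated transcripts, the baseMean was 302 ± 4.26, or 71.5 ± 1.01 per exonic kb (percentile 45.0). Sox4, on chromosome 13 from 28948919 to 28953713, had a baseMean of 175 ± 3.24, or 36.5 ± 0.676 per exonic kb (percentile 39.3). Both are overlapped by a long non-coding gene on the opposite strand, Otx2os1 over 5112 bases and Gm26735 over 2753 bases. The reads were counted by strand. Otx2 also shares 1726 bases with Gm49154 on its own strand, and Foxd3 shares 89 bases with the miRNA gene Gm23366 on its own strand. Counting by strand cannot separate these, and how reads in the shared bases were assigned is not known here.

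The remaining 3 genes were transcribed at 0.0847 times the median level or less. Pou3f1, on chromosome 4 from 124656807 to 124660655, had a baseMean of 39.3 ± 1.54, or 10.2 ± 0.399 per exonic kb (percentile 29.9). Sox3, on chromosome X from 60891366 to 60893430, had a baseMean of 17.4 ± 1.02, or 8.43 ± 0.495 per exonic kb (percentile 28.7). Fgf5, on chromosome 5 from 98254184 to 98277030 with 3 exons, was lowest, with a baseMean of 11.04 ± 0.815, or 4.42 ± 0.326 per exonic kb (percentile 24.6). Reads from Fgf5 were thus few but were present. In these bulk cultures, transcription in fewer cells and less transcription per cell cannot be told apart. Nor can a level held mostly by some of the libraries, since the mean covers SPT16-depleted and control libraries together.

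**Figure D1:**
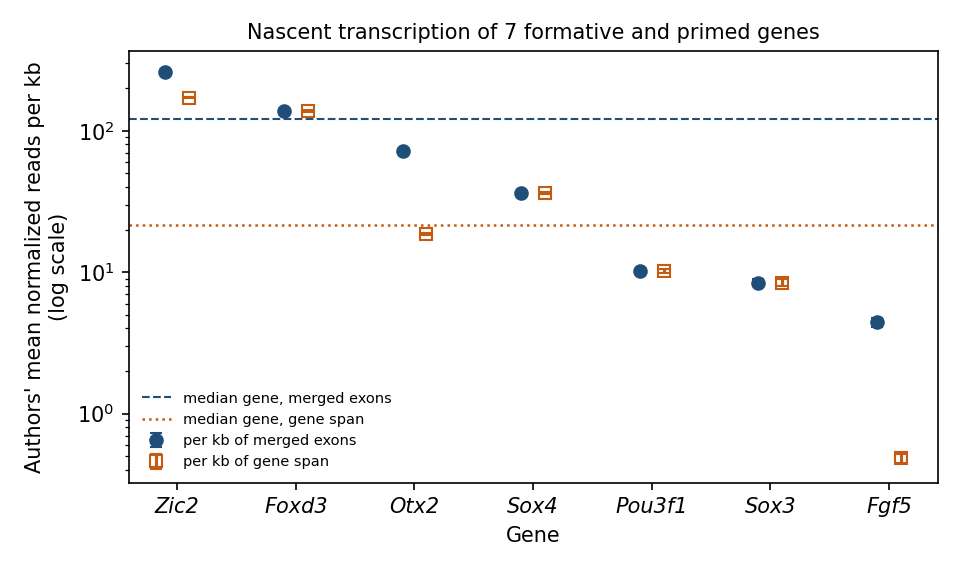
Levels of the 7 genes as the authors' mean normalized reads per kb on a log axis, per kb of merged exons (filled circles) and of gene span (open squares), with counting error bars that are mostly smaller than the symbols. Dashed and dotted lines give the median gene on each scale, 120.5 and 21.7, and only Zic2 and Foxd3 lie above the dashed line while Sox4 also lies above the dotted one by gene span.

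From Zic2 to Fgf5 the level per exonic kb fell 59.3-fold. Steps between neighbours in this order were 1.89-fold from Zic2 to Foxd3, 1.94-fold from Foxd3 to Otx2, 1.96-fold from Otx2 to Sox4 and 3.58-fold from Sox4 to Pou3f1. Pou3f1 and Sox3 were the closest pair, 1.21-fold apart, with a difference of 1.77 reads per kb and a counting error of the difference of 0.636. Sox3 and Fgf5 were 1.91-fold apart. Whether any neighbours differ beyond the spread between libraries was not tested, since that spread is not known here.

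Gene span changed the place of the genes with introns. Per kb of span Zic2 was at 171 (percentile 83.5) and Otx2 at 18.7 (percentile 48.7), which put Sox4, at percentile 55.4, above Otx2. Fgf5, whose introns take up most of its 22847 bases, was at 0.483 per kb of span (percentile 22.9). The single-exon genes kept their levels per kb but ranked higher among all genes by span, Foxd3 at percentile 78.7, Pou3f1 at 43.8 and Sox3 at 42.4. On either scale Fgf5 was lowest and Zic2 highest.

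Beside their paralogues, Otx2, Foxd3 and Pou3f1 were the most transcribed of their families per exonic kb. Sox2, the SOXB1 gene of the core pluripotency network, had 2910 reads per exonic kb, 345 times the level of Sox3, and Sox1, a SOXB1 gene known from neural progenitors, was 6.01 times above Sox3. Fgf4, the growth factor that ES cells themselves make, was 537 times above Fgf5 per exonic kb (877 times by span), while Fgf6 lay below Fgf5 at 0.556 per kb. Each of these SOXB1 genes has a single exon, so the comparison within that family does not turn on introns.

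Otx2 and Foxd3 were the most transcribed of their families on all 3 scales tried. Otx2 was 8.35 times above Otx1 per exonic kb (3.28 times by span), and Crx, known from photoreceptors, was at 0.946. Foxd3 was 9.86 times above Foxd1, with 14.1 per kb, and Foxd2 and Foxd4 were at 1.26 and 0.352. Foxd1 to Foxd4 all have 1 exon.

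In the POU3 and SOXC families the levels were closer. Pou3f1 was 1.60 times above Pou3f3 and 3.28 times above Pou3f2 per kb, and Pou3f4 was lowest at 0.399. Not divided by length, however, Pou3f3 had more reads than Pou3f1 (baseMean 47.2 and 39.3). Sox12 was 4.50 times above Sox4, which was 1.71 times above Sox11 per kb, but not divided by length Sox11 and Sox4 were level (baseMean 177 and 175). All POU3 and SOXC genes here have a single exon.

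Zic2 was set beside Zic1, Zic4 and Zic5, and no rank within the whole ZIC family is given. Zic5, which lies on the opposite strand with 9758 bases between the 2 genes, had 179 ± 1.48 reads per exonic kb against 262 for Zic2, but not divided by length Zic5 had more reads (baseMean 876 and 754). Zic1 and Zic4, a neighbouring pair elsewhere in the genome, were at 2.12 and 1.52. Zic2 and Zic5 were thus above the median gene per exonic kb, and Zic1 and Zic4 far below it.

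**Figure D2:**
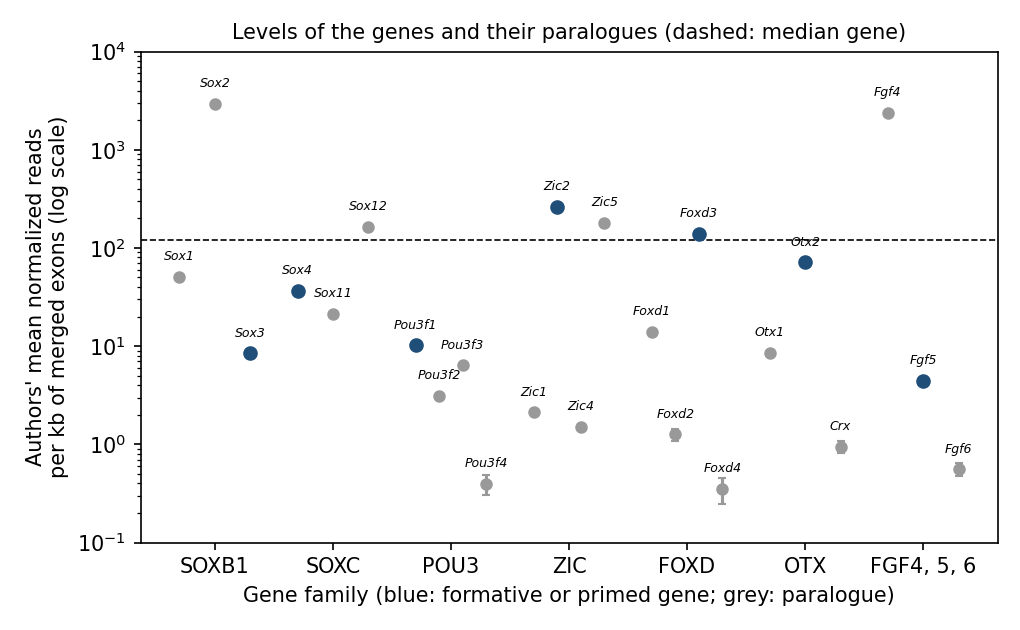
Levels of the 7 genes (blue) and paralogues (grey, for the ZIC family in part) as the authors' mean normalized reads per kb of merged exons on a log axis, by family, with counting error bars and the median gene as a dashed line. Sox3 and Fgf5 lie far below Sox2 and Fgf4, while Otx2, Foxd3 and Pou3f1 are the highest of their families.

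Among the 20 other genes listed for the formative and primed states, 12 were above the median gene per exonic kb, against 2 of the 7 members, and their median percentile was 54.8 against 39.3. Epha4, an ephrin receptor, was highest per exonic kb at 8388 reads (457 by span), but by span Nodal was highest at 588. Cer1, a secreted Nodal inhibitor, was lowest at 0.371 per exonic kb. No test was made of the difference between this list and the members, and the list shares Zic5 and Sox11 with the families above. Its levels per exonic kb reached from high ones such as that of the FGF-responsive factor Etv5 at 7035 to low ones such as that of Fgf15 at 5.14. Of the receptors through which FGF ligands act, Fgfr1 was at 1161 and Fgfr2 at 876 reads per exonic kb, and Fgfr4 and Fgfr3 at 60.5 and 0.771. Fgfr2 is annotated over 2960900 bases, and by span it was at 3.06.

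Markers of the labelled cell type were high. All 5 core genes and all 12 naive genes were above the median gene per exonic kb and by span. Per exonic kb their median percentiles were 96.7 and 96.1. Levels ran from Zfp42 at 12350 reads per exonic kb and Nanog at 6596 down to Utf1 at 202 and Dppa3 at 151. Without division by length Utf1 and Dppa3 were below the median gene, at percentiles 44.8 and 40.0. Per exonic kb none of the 6 neural, 6 primitive streak or 6 primitive endoderm genes was above it, and 2 of 6 trophectoderm genes were. The highest of these lists were Sox1 at 50.7, T at 89.7, Gata4 at 117 and Tfap2c at 292 per exonic kb. The lowest were Foxa2 at 2.42, Sox7 at 0.81 and Elf5 at 0.685, with Tubb3 listed at 0. The Tubb3 PROMPT had reads, however (baseMean 2.09), and overlapping annotated genes were looked up for the members only. Counted by gene span instead, 1 neural, 2 primitive streak and 2 trophectoderm genes were above the median gene, and 0 primitive endoderm genes were. Per kb of exons or of span, Zic2 and Foxd3 were thus above every neural, streak and primitive endoderm gene listed. On the same scales Pou3f1, Sox3 and Fgf5 were below Sox1 and T. Not divided by length, Foxd3 (baseMean 322) was below the neural gene Map2 (616) and below Gata4 (455).

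Of the 4 PROMPTs, that of Foxd3 stood highest and that of Fgf5 was barely detected. The Foxd3 PROMPT had a baseMean of 47.4 ± 1.68 reads, above 96.2% of the 23257 PROMPTs with reads. Those of Sox4 and Otx2 were nearly the same, 3.58 ± 0.461 and 3.46 ± 0.454, above 71.5% and 71.1%, and differed by less than their counting error. Among the 10875 PROMPTs with a baseMean of at least 1, however, both fell below the median, at percentiles 39.0 and 38.1, while Foxd3 stayed at 91.8. The Fgf5 PROMPT was at 0.291 ± 0.132, below the median PROMPT of 0.815.

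PROMPT windows reach up to 1 kb from the start, so a PROMPT's reads were set beside the gene's reads per kb. The tables were normalized separately, so such a ratio is open to a difference in scale between them, which a rank among genes is not. The Foxd3 PROMPT had 34.1% of the level of Foxd3, above 89.9% of 7395 pairs with both at a baseMean of at least 1, whose median was 1.87%. For Sox4 the share was 9.80% (above 79.2% of pairs) and for Otx2 4.85% (above 68.9%). Per kb of gene span, Otx2 had 18.5% and the median pair 9.54%, which left Foxd3 above 75.8%, Otx2 above 65.3% and Sox4 above 50.6% of pairs. For Fgf5 the share was 6.60% per exonic kb and 60.3% by span, and it was not ranked, since its PROMPT was below a baseMean of 1.

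**Figure D3:**
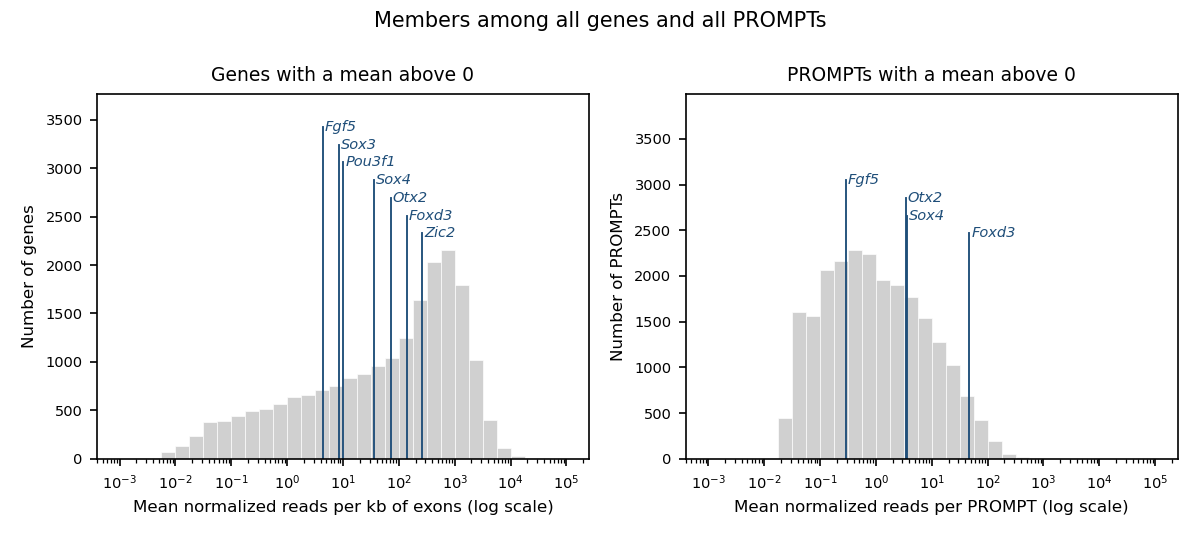
Left, the number of genes at each level (authors' mean normalized reads per kb of merged exons, log axis) with the 7 genes as labelled lines. Right, the number of PROMPTs at each baseMean (log axis) with the 4 PROMPTs, where Foxd3 at 47.4 lies in the upper tail and Fgf5 at 0.291 lies left of the median of 0.815.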

How the data were processed

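The 18 TT-seq libraries fall into 6 conditions by the labels. Reads were trimmed (Trim Galore), aligned uniquely to mm10 (STAR) and counted by strand (featureCounts, Gencode vM25) by the authors, who deposited a DESeq2 table for every class of transcript (the submitters' processing notes also name HTSeq and deepTools). The deposited signal, baseMean, averages each feature's counts over all libraries after the authors scaled them by size factors. The other 4 value columns (log2 fold change, its standard error, p-value and adjusted p-value) hold the authors' own comparison and were not used. Regions of the DHS and eRNA tables carry numbers only and were not used.

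The 7 genes and the gene lists were chosen with earlier results of these data known. Genes named are the 7, their paralogues, the FGF receptors, and the highest and lowest gene of each list. Etv5, Fgf15, Nodal and Map2 were named after their values were seen. A gene of the lists is not reported here and was left out of them. Exons, spans and positions came from Gencode vM21 on GRCm38, which held 21817 of the 21859 gene IDs. Single-read values were sought below a baseMean of 0.2, each shared by at least 0.06 times as many features as the commonest one, leaving out sums of 2 lower values (tolerance 2e-05). There were 18 in the gene table and 17 in the PROMPT table, and 1 over their geometric mean was 18.1 and 18.9. The highest was 5.34 times the lowest in the gene table, which is the ratio of the largest to the smallest size factor. The counting error of a mean is the square root of the mean times the average single-read value, and was tested on simulated data. Software versions were matplotlib 3.10.9, scipy 1.17.1, pandas 2.3.3, numpy 2.4.6 and Python 3.11.15. Alternatives were a baseMean of at least 1 or 10, all genes listed, gene span, no length, other sets of PROMPTs, and promoters without the transcribed bases.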

Additional observations from a re-analysis of the deposited data

How the results depend on the processing

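With no value per library there was no test whose call could change, no replicate could be left out, and SPT16-depleted and control libraries were not compared. No paired analysis was possible because the deposited tables give 1 mean over all libraries. What moved was the place of the genes among all genes. The median percentile of the 7 genes was 39.3, and it was 30.8 at a baseMean of at least 1, 20.8 at a baseMean of at least 10, 44.0 among all genes listed, 48.7 by gene span and 41.9 without division by length. The number of members above the median gene was 2, and it was 1 at a baseMean of at least 1, 0 at a baseMean of at least 10 1 without division by length and 3 by gene span. Both filters remove the lowest genes from the ranking, so that every percentile falls. Zic2 ranged from percentile 47.2 to 83.5 over these alternatives and Fgf5 from 3.26 to 30.4. The median share of PROMPT to gene level was 8.20% per exonic kb and 26.3% by gene span, a change that came from Otx2 and Fgf5, the genes with introns. Without division by length Sox4 ranked 3 of 3 in its family, Pou3f1 2 of 4, and Zic2 2 of the 4 ZIC genes set side by side. Among PROMPTs whose symbol is in the gene table, the percentiles were 95.5 for Foxd3, 65.0 for Sox4, 64.5 for Otx2 and 25.6 for Fgf5. Depth limits the Fgf5 PROMPT most, whose counting error is 0.132 at a level of 0.291.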
